A study of Danio rerio with 24 samples.

Results

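Mebendazole (MBZ), a benzimidazole anthelmintic, was compared with BBC, a benzimidazole carbamate that shares the frame of MBZ and carries in addition a butyl ester on the benzoyl ring. The comparison was made in the eyes of zebrafish at 72 h post-fertilization (hpf). The samples were selected by their labels, which gave the compound and an exposure of 24 h, and comprised 8 of the 24 arrays of the series: 4 of MBZ eyes and 4 of BBC eyes, numbered 1 to 4 in each group. All larvae were of the AB line and were exposed from 48 hpf at 0.3 μM, so the labels of the groups differed in the compound alone. Each array held RNA from a pool of eyes of many larvae, and the experiments were independent. No vehicle or untreated eyes were on the arrays, so a change that MBZ and BBC have in common could not be seen here.

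Microtubules are polymers of α- and β-tubulin that form the mitotic spindle and the tracks of axons, and benzimidazole anthelmintics such as MBZ bind β-tubulin and hinder its polymerization. In the larval eye, dividing progenitors lie at the margin of the retina, whereas the centre holds neurons whose axons and synapses are being laid down. Cells with damaged DNA arrest their cycle through checkpoint genes such as gadd45 and either repair the damage or die by apoptosis, in which BH3-only proteins act on mitochondria and caspases cleave cell proteins; phagocytes then clear the remains.

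The arrays measured RNA by the fluorescence of a single dye. Levels below are log2 values of the background-corrected signal after division by each array's own 75th percentile, so 0 stands for that percentile, and a log2 fold change of 1 means a 2-fold higher signal in MBZ eyes. Levels of different probes are not compared with each other. The 75th percentile lay between 437 and 663 intensity units in MBZ eyes and between 490 and 705 in BBC eyes (two-sided exact permutation test, p = 0.886; smallest possible p, 0.0286). The percentage of probes well above background was 71.3 to 74.4 in MBZ eyes and 66.5 to 73.3 in BBC eyes (same exact test, p = 0.286). All 18 eye markers with a probe, of 24 looked for, were well above background on all 8 arrays, and they came from lens, photoreceptors, other retinal cells and pigment epithelium. Markers of heart (6 of 6), skeletal muscle (4 of 4), red blood cells (4 of 4), macrophages (5 of 5) and pituitary (4 of 4) were also well above background on all 8 arrays. Whether this RNA came from vessels and cells within the eye or from tissue around it was not tested. Replicates 1 and 2 of both compounds shared a slide, as did replicates 3 and 4, whereas BBC and MBZ took different positions on both slides, and position and compound cannot be told apart. In pooled eyes, fewer cells of a type and less RNA per cell cannot be told apart either.

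After 24 h, the 2 compounds differed at few genes, and nearly all of those were higher after MBZ. They were led by genes of the DNA damage checkpoint (ccng1, mdm2, gadd45aa, phlda3), the proapoptotic gene bbc3, the transcription factor genes atf3, cremb, fosab and jun, the microtubule regulator genes stmn4, stmn4l and tppp2, and genes of phagocytes (slc7a7, ctsl.1, lgals9l1). Of 31507 probes tested, 91 (0.289%) rose in MBZ eyes and 10 (0.0317%) fell at an adjusted p under 0.20 (limma with Benjamini-Hochberg adjustment over all tested probes; 1458 probes, 4.63%, had an unadjusted p under 0.05). Of the 91 rises, 86 were well above background on at least 1 BBC array, and the largest of these was 2.32 on the log2 scale. With a lower bound in place of the value for the other 5, the median rise was 0.86 and 34 were at least 2-fold, whereas the median of the 10 falls was -0.60 and none was 2-fold. In 85 of the 91 rises all MBZ arrays lay above all BBC arrays, and in 8 of the 10 falls all lay below. Over all probes tested, all MBZ arrays lay above for 1.68% and below for 1.32%. The probes were called from these same arrays, which favours groups without overlap. The rule that picked the largest rises and falls named below also required it. Pairing MBZ and BBC arrays by their replicate number gave 188 called probes (0.597%), 140 higher and 48 lower, and 91 of them were among the 101 called without pairing. Over all tested probes, the 95% interval of the log2 fold change lay wholly within 2-fold for 29011 probes (92.1%) and within 1.5-fold for 23102 (73.3%).

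**Figure D1:**
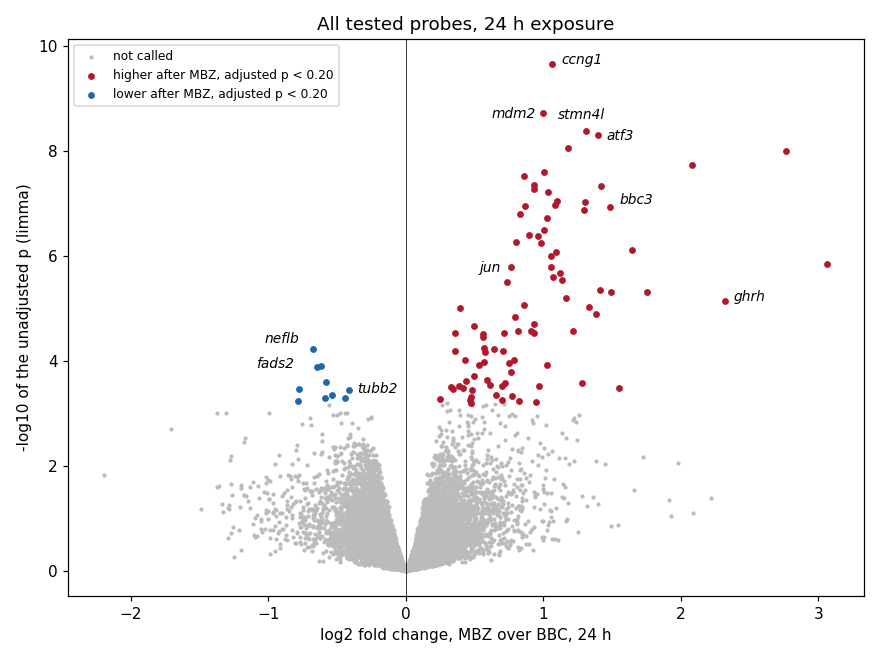
Each point is a probe; the x axis is the log2 fold change of MBZ over BBC eyes at 24 h and the y axis is -log10 of the unadjusted p. The largest called rise measured in BBC eyes is ghrh at 2.32, the points further right are fitted values of probes not well above background in BBC eyes, and the 10 called falls lie between -0.78 and -0.41.

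Genes of the DNA damage checkpoint rose. ccng1, which encodes cyclin G1, a brake on the cell cycle, had the smallest p of all probes. Its log2 levels were 6.77, 6.81, 6.56 and 6.48 in MBZ eyes, against 5.68, 5.66, 5.47 and 5.55 in BBC eyes. The groups were far apart compared with the spread within either, and the log2 fold change was 1.06 ± 0.09 (SE; limma, adjusted p = 7.02e-06, n = 4 each), with all 3 probes of the gene called. mdm2 encodes a ubiquitin ligase that is switched on after DNA damage and marks proteins for destruction. Its log2 levels were 2.11, 1.74, 1.91 and 1.63 in MBZ eyes, against 0.73, 0.88, 0.77 and 1.01 in BBC eyes, with no overlap. The log2 fold change was 1.0 ± 0.10 (SE; limma, adjusted p = 3.02e-05), and both probes were called. gadd45aa encodes a small protein that halts the cell cycle under genotoxic stress, and its log2 levels were 1.25, 1.09, 0.78 and 0.41 in MBZ eyes, against 0.04, 0.11, -0.10 and -0.24 in BBC eyes. Again no array of one compound lay among those of the other; the log2 fold change was 0.93 ± 0.17 (SE; limma, adjusted p = 0.0136), and the second probe of the gene gave 1.1. phlda3, an inhibitor of the survival kinase Akt, stood at 1.68, 1.1, 1.17 and 0.71 in MBZ eyes, against 0.20, 0.34, 0.49 and 0.42 in BBC eyes, a log2 fold change of 0.80 ± 0.14 (SE; limma, adjusted p = 0.00992). parp3, a poly(ADP-ribose) polymerase that acts at strand breaks, rose by 0.57 ± 0.11 (SE; limma, adjusted p = 0.0313).

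The rise did not extend over the whole list. Of 41 tested genes of the DNA damage checkpoint and repair, these 5 were called higher (12.2%, against 0.479% of the 9816 named genes tested, each represented by its brightest probe) and none lower (0.0509% of all named genes), and the median log2 fold change was -0.01, as against 0.01 over all named genes. The paralogs gadd45ba and gadd45ab differed by -0.05 (95% interval, -0.27 to 0.17) and -0.01 (-0.16 to 0.13). The repair genes brca2 and rpa2, which act in recombination and on single-stranded DNA, differed by -0.23 (-0.62 to 0.16) and -0.01 (-0.39 to 0.36). Outside the list, exo5, whose product is an exonuclease that trims single-stranded DNA, rose by 1.06 ± 0.16 (SE; limma, adjusted p = 0.00164). Its log2 levels were -0.47, -1.24, -1.08 and -1.35 in MBZ eyes, against -2.09, -1.85, -2.23 and -2.18 in BBC eyes, and did not overlap.

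Among apoptosis genes, bbc3 and casp8 rose. bbc3 encodes Puma, a BH3-only protein that triggers the mitochondrial route to cell death. Its log2 levels were 0.82, 0.06, 0.28 and -0.32 in MBZ eyes, against -1.26, -1.26, -1.06 and -1.53 in BBC eyes. Every MBZ array was above every BBC array although the MBZ arrays themselves ranged widely, and the log2 fold change was 1.49 ± 0.19 (SE; limma, adjusted p = 0.00021), the largest among named genes well above background on all arrays. casp8, the initiator caspase of the death receptor route, had log2 levels of 0.27, -0.55, -0.42 and -0.51 in MBZ eyes, against -1.27, -1.15, -1.17 and -0.89 in BBC eyes. MBZ replicate 1 stood well above the other MBZ arrays, yet the groups did not overlap; the log2 fold change was 0.81 ± 0.15 (SE; limma, adjusted p = 0.017). Of 33 tested apoptosis genes, these 2 (6.06%) were higher and none was lower, with a median of 0.07. baxa, the pore-forming partner of BH3-only proteins, differed by 0.19 (95% interval, 0.05 to 0.32; limma, adjusted p = 0.78), and bcl2l1, which protects cells from it, by -0.01 (-0.15 to 0.13).

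AP-1 and immediate early genes, which encode transcription factors switched on within minutes to hours of stress or injury, had the largest share of called members. The lists were chosen with earlier results of these data known, which may have raised such shares. atf3, a stress-induced bZIP factor, had log2 levels of 1.67, 1.46, 1.53 and 1.11 in MBZ eyes, against 0.15, 0.14, -0.13 and 0.02 in BBC eyes. With no overlap, the log2 fold change was 1.40 ± 0.15 (SE; limma, adjusted p = 3.99e-05). fosab, the Fos subunit of AP-1, had 1.21, 0.71, 0.81 and 0.66 in MBZ eyes, against -0.06, -0.17, -0.45 and -0.26 in BBC eyes, a log2 fold change of 1.08 ± 0.14 (SE; limma, adjusted p = 0.000205); 4 of its 5 probes were called, with changes between 1.01 and 1.17. jun, the partner subunit, had 4.50, 4.53, 4.40 and 4.27 in MBZ eyes, against 3.61, 3.63, 3.67 and 3.76 in BBC eyes. Its arrays were tight in both groups, and the log2 fold change was 0.76 ± 0.12 (SE; limma, adjusted p = 0.00164). cremb, a cAMP-responsive bZIP factor, had -1.13, -1.09, -1.22 and -1.73 in MBZ eyes, against -2.55, -2.79, -2.45 and -2.54 in BBC eyes, a log2 fold change of 1.29 ± 0.17 (SE; limma, adjusted p = 0.000226). Its second probe was also called, at 0.97, and with normexp background correction the first gave 0.83.

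Smaller rises of the same list were those of rrad (0.77), a small GTPase, dusp2 (0.70), a phosphatase of MAP kinases, and ier2b (0.36), an immediate early gene. For rrad the call was lost when arrays were paired (limma, adjusted p = 0.31). In total 7 of 36 tested genes (19.4%) were called higher and none lower, 31 of the 36 changes were above 0, and the median was 0.20. The closely related junbb and junba differed by 0.31 (95% interval, 0.10 to 0.51) and 0.41 (0.01 to 0.82) without being called. egr1, another classical immediate early gene, was too dim and variable for a narrow limit, with 0.11 (-1.44 to 1.66). The summed linear level of the 36 genes, in units of the 75th percentile, was 139 to 154.3 in MBZ eyes and 121 to 129.99 in BBC eyes.

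A small set of microtubule regulators rose while the tubulin genes themselves moved little. stmn4 and stmn4l encode stathmins, phosphoproteins of neurons that bind tubulin dimers and promote the disassembly of microtubules. stmn4l had log2 levels of 3.79, 3.81, 3.84 and 3.65 in MBZ eyes, against 2.23, 2.42, 2.67 and 2.54 in BBC eyes. The difference was many times the spread within MBZ eyes, and the log2 fold change was 1.31 ± 0.13 (SE; limma, adjusted p = 3.99e-05). stmn4 had -0.76, -1.73, -0.60 and -0.90 in MBZ eyes, against -2.15, -3.05, -2.04 and -2.39 in BBC eyes. The arrays of replicate 2 were the lowest in both groups, all 4 pairs differed in the same direction, and the log2 fold change was 1.41 ± 0.22 (SE; limma, adjusted p = 0.00386). tppp2, of a family that promotes tubulin polymerization, had -1.18, -1.51, -1.17 and -1.44 in MBZ eyes, against -2.11, -2.19, -1.99 and -2.23 in BBC eyes, a log2 fold change of 0.80 ± 0.11 (SE; limma, adjusted p = 0.000687).

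These 3 were the called members among 27 tested stathmins and other microtubule-binding proteins (11.1%), whose median was 0.03. The other stathmins were measured with narrow limits: stmn1a differed by 0.02 (95% interval, -0.22 to 0.25), stmn1b by 0.06 (-0.13 to 0.26), stmn2a by 0.09 (-0.13 to 0.30) and stmn2b by 0.07 (-0.15 to 0.29). Of 18 tubulin genes, tubb2, a β-tubulin, was called lower and none was called higher. Its log2 levels were 1.79, 1.38, 1.69 and 1.56 in MBZ eyes, against 2.18, 1.92, 1.97 and 2.0 in BBC eyes, a log2 fold change of -0.41 ± 0.10 (SE; limma, adjusted p = 0.129). The call was fragile: the second probe of the gene gave -0.15 and was not called, and the adjusted p rose to 0.6 without MBZ replicate 2 and to 0.33, 0.5, 0.21 and 0.25 without MBZ replicate 4 and BBC replicates 1, 3 and 4. The other 17 tubulin genes lay between -0.24 (tubb2b) and 0.08 (tuba4l).

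Phagocyte genes rose next. slc7a7, an amino acid transporter needed for microglia to settle in the zebrafish brain, had log2 levels of -0.36, -0.39, -0.64 and -0.74 in MBZ eyes, against -1.36, -1.43, -1.40 and -1.68 in BBC eyes. The groups did not overlap, and the log2 fold change was 0.93 ± 0.11 (SE; limma, adjusted p = 0.000142). ctsl.1, a lysosomal cathepsin, had 0.32, 0.24, 0.30 and 0.21 in MBZ eyes, against -0.88, -0.92, -0.81 and -0.59 in BBC eyes, a log2 fold change of 1.07 ± 0.17 (SE; limma, adjusted p = 0.00239). lgals9l1, a galectin, had -2.16, -2.52, -2.80 and -2.89 in MBZ eyes, against -3.46, -3.99, -3.88 and -3.60 in BBC eyes, a log2 fold change of 1.14 ± 0.18 (SE; limma, adjusted p = 0.00259), or 0.57 with normexp background correction. havcr1 (0.76), a receptor for the phosphatidylserine of dying cells, plek (0.64), a substrate of protein kinase C in blood cells, and the cathepsin genes ctss2.1 (0.61) and ctsc (0.56) were also called. ctss2.1 was well above background on only 2 of the 4 BBC arrays, and the second probe of ctsc gave 0.16 and was not called (mean of both probes, 0.36; adjusted p = 0.807).

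Thus 7 of 53 tested genes of macrophages, microglia and phagocytes were higher (13.2%) and none was lower, and the median was 0.18; the paired test called 9, adding tnfb and cxcr3.2, a cytokine and a chemokine receptor. The defining macrophage markers were not called. mpeg1.1, a perforin of macrophages, had log2 levels of 0.03, -0.30, -0.35 and -0.56 in MBZ eyes, against -0.49, -0.56, -0.88 and -1.06 in BBC eyes, and these overlapped (log2 fold change, 0.45; 95% interval, 0.16 to 0.74; limma, adjusted p = 0.614). The remaining markers, mfap4.1, spi1b, lcp1 and csf1ra, differed by 0.38, 0.25, 0.16 and -0.08. The summed linear level of the 53 genes was 164.6 to 172 in MBZ eyes and 141 to 165.2 in BBC eyes. The part that a larger number of phagocytes had in these rises was not tested.

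**Figure D2:**
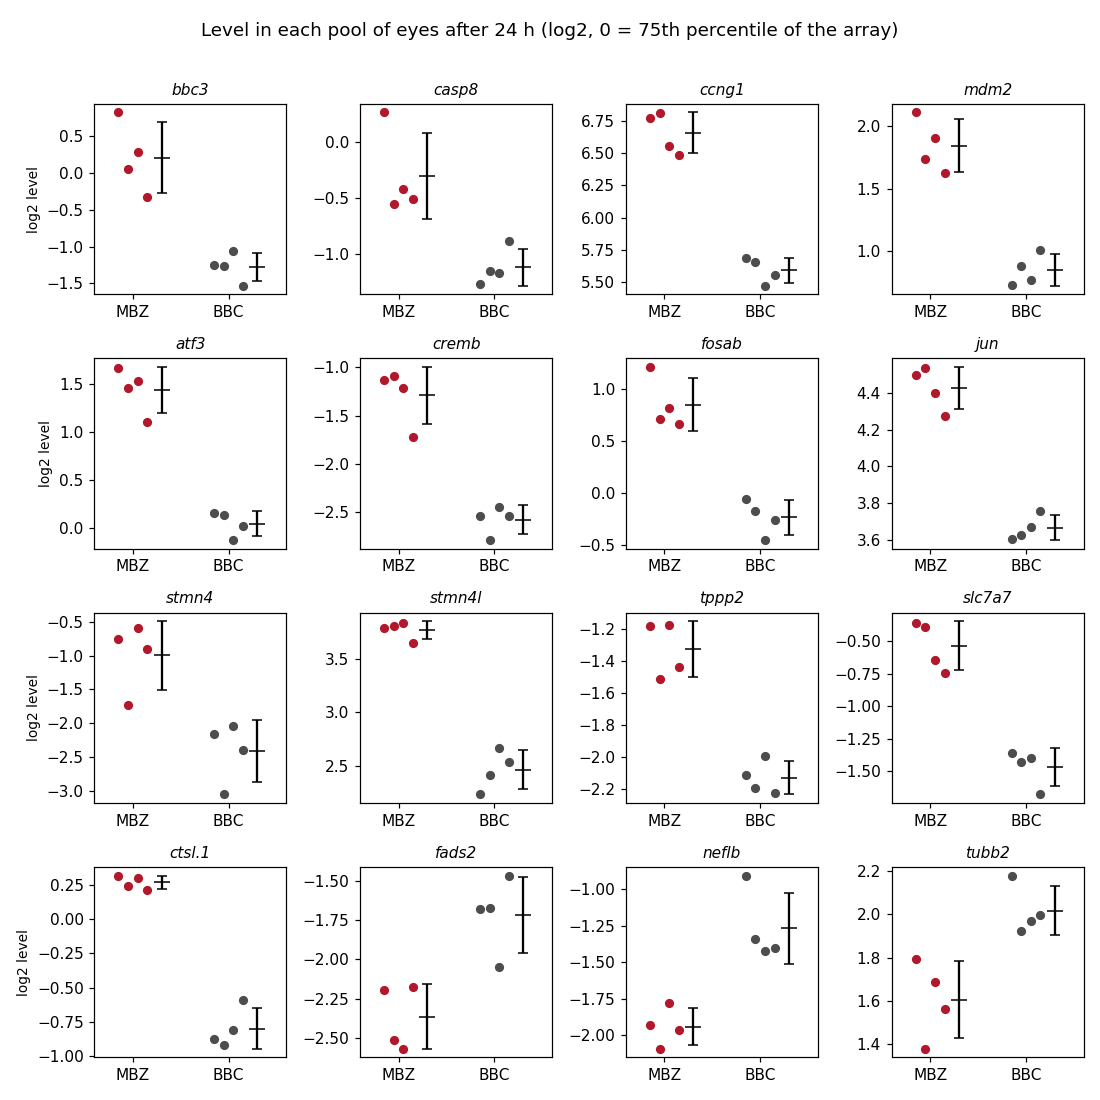
Log2 level of 16 genes in each of the 4 MBZ arrays (left) and the 4 BBC arrays (right), ordered by replicate number, with the mean and SD as bars; 0 on each y axis is the 75th percentile of the array. The MBZ and BBC points do not overlap for any of the 16 genes. Most of these genes were picked by a rule that required separate groups, which 3% of all tested probes have. fads2, neflb and tubb2 are the ones that lie lower in MBZ eyes.

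The largest fold changes were at dim probes. ghrh, which encodes growth hormone-releasing hormone, had log2 levels of -1.78, -2.65, -2.82 and -3.32 in MBZ eyes, against -4.87, -4.41, -5.73 and -4.82 in BBC eyes, where it was well above background on 3 of 4 arrays. The groups were widely separated, by a log2 fold change of 2.32 ± 0.39 (SE; adjusted p in limma, 0.00555). With normexp background correction the log2 fold change was 0.93 and still called. ghrh was the single called gene of 30 tested pituitary and hypothalamic hormone genes, whose median was 0.16, with 20 above 0. Without being called, pth2, cart2 and gnrh2 differed by 0.52, 0.48 and 0.41. The 4 pituitary markers were all lower on average in MBZ eyes, also without being called. pomca, the precursor of corticotropin, differed by -0.62, cga by -0.47, prl by -0.42 and gh1 by -0.28. A probe for the uncharacterized gene si:dkey-204l11.1 had -3.48, -4.32, -4.85 and -5.23 in MBZ eyes, against -7.45, -6.76, -7.51 and -7.22 in BBC eyes. As it was not well above background on any BBC array, the difference is given as a bound, at least 2.83-fold higher. Its limma call (adjusted p = 5.18e-05) tests the fitted values, BBC signals near background included, and is not a test of the bound. At 24 h the probe was well above background on MBZ arrays alone. The bound sets the mean of MBZ eyes against the lowest signal that counted as well above background on the BBC arrays. Of the 91 called rises, 5 had no BBC array above background, and the calls of all 5 rest on such fitted values. Besides that of si:dkey-204l11.1, the bounds were 3.75-fold and 1.65-fold for a pair of unnamed probes. They were 1.26-fold for mgp, an inhibitor of calcification that was above background on 3 MBZ arrays, and 1.23-fold for wnt8-2, a Wnt ligand. For mgp the groups overlapped, and its second probe gave 0.20 and was not called.

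Further named rises belonged to several functions. rspo1, a secreted enhancer of Wnt signalling and the called member among 30 tested genes of Müller glia and injury response, rose by 0.91 ± 0.17 (SE; limma, adjusted p = 0.017). mat2al, a methionine adenosyltransferase, had log2 levels of 0.43, 0.12, 0.05 and -0.32 in MBZ eyes, against -0.74, -0.79, -0.81 and -0.82 in BBC eyes, and rose by 0.86 ± 0.15 (SE; limma, adjusted p = 0.00648). vrk2, a kinase related to vaccinia B1, rose by 0.93 ± 0.11 (SE; limma, adjusted p = 0.000136), with levels of 0.84, 0.48, 0.41 and 0.40 in MBZ eyes, against -0.40, -0.37, -0.50 and -0.34 in BBC eyes. These genes shared the wider spread in MBZ eyes, where replicate 1 was the highest. gja13.2, a connexin of gap junctions, rose by 1.03 ± 0.21 (SE; limma, adjusted p = 0.056), but its spot on MBZ replicate 4 was uneven and left out. Its call was lost when arrays were paired (adjusted p = 0.44) and without MBZ replicate 1 (0.26) or MBZ replicate 2 (0.21). With normexp background correction gja13.2 gave 0.43 and was not called (limma, adjusted p = 0.41). irf1b, an interferon regulatory factor and the called member of 20 tested MHC class I, immunoproteasome and interferon genes, rose by 0.72 ± 0.16 (SE; limma, adjusted p = 0.109). It lost its call without any of 6 arrays (adjusted p between 0.24 and 0.38), namely MBZ replicates 1, 2 and 4 and BBC replicates 1, 2 and 4. With normexp background correction irf1b gave 0.42 and was not called.

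The falls were fewer and smaller, and their number depended on the fit. At an adjusted p under 0.05, 1 fall was called beside 63 rises. Normexp background correction gave 1 fall beside 49 rises, and the fit of the 8 arrays alone gave 3 beside 46. The replicate block gave 48 beside 140, and the fit without MBZ replicate 1 gave 44 beside 131. neflb, the light neurofilament subunit of axons, had log2 levels of -1.93, -2.09, -1.78 and -1.96 in MBZ eyes, against -0.91, -1.34, -1.42 and -1.40 in BBC eyes. No MBZ array reached the BBC arrays, and the log2 fold change was -0.67 ± 0.13 (SE; limma, adjusted p = 0.0324). It was the called member of 35 tested genes of ganglion cells and axons, whose median was -0.10 and 8 of which were above 0. fads2, a fatty acid desaturase of polyunsaturated lipid synthesis, had -2.20, -2.51, -2.57 and -2.18 in MBZ eyes, against -1.68, -1.68, -2.05 and -1.47 in BBC eyes, a log2 fold change of -0.65 ± 0.14 (SE; limma, adjusted p = 0.0592). It was the called member of 40 genes of sterol and fatty acid synthesis, and it lost its call without MBZ replicate 2, MBZ replicate 3 or BBC replicate 4 (adjusted p = 0.27, 0.27 and 0.25). With normexp background correction it gave -0.48 and was not called (limma, adjusted p = 0.27). The second probe of fads2 gave -0.57 and was not called. tk1, the thymidine kinase of S phase, had -2.16, -1.88, -2.54 and -1.67 in MBZ eyes, against -1.54, -1.52, -1.39 and -1.44 in BBC eyes (log2 fold change, -0.59; limma, adjusted p = 0.173). Its brighter probe gave -0.32 (95% interval, -0.60 to -0.04) and was not called, the paired test did not call either probe (adjusted p = 0.30), and the adjusted p was between 0.26 and 0.62 when any 1 array other than MBZ replicates 2 and 4 was left out. gfus.2, of GDP-fucose synthesis, and rhbdd2, a rhomboid domain protein, were called at -0.58 and -0.44 with overlapping groups.

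Genes of dividing cells lay mostly slightly below 0, and few passed a test. Of 49 DNA replication genes none was called, 5 were above 0 and the median was -0.14; of 42 genes of mitosis and the spindle none was called, 16.7% were above 0 and the median was -0.10. Over all named genes 52.3% were above 0. Within pairs 1 to 4 the median difference was -0.24, -0.02, -0.07 and -0.20 for DNA replication genes and -0.14, -0.01, -0.10 and -0.16 for genes of mitosis. The paired test called no brightest probe of either list, but 1 of 5 probes of smc2, a condensin subunit, was called lower (-0.43; limma, adjusted p = 0.0613), and the dimmer probe of tk1 was called without pairs, as given above. pcna, the sliding clamp of DNA polymerase, had log2 levels of 2.28, 2.31, 2.09 and 2.54 in MBZ eyes, against 2.62, 2.38, 2.06 and 2.84 in BBC eyes, a difference of -0.17 (95% interval, -0.54 to 0.20). ccnb1 and ccna2, the cyclins of mitotic entry, differed by 0.09 (-0.25 to 0.42) and -0.10 (-0.52 to 0.32). The 5 probes of smc2 lay between -0.44 and -0.34. chaf1a, of the replication list, differed by -0.39 (-0.77 to -0.01) and tacc3, of the mitosis list, by -0.25 (-0.53 to 0.02), without being called. Levels of these genes moved with the replicate number in both groups: the DNA replication genes of replicate 3 deviated by a median of -0.35 from the other MBZ arrays in MBZ eyes and by -0.41 from the other BBC arrays in BBC eyes, and those of replicate 4 by 0.22 and 0.28.

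The unpaired test over all arrays called no gene of the lists of retinal transcription factors, photoreceptors, pigment epithelium and lens. Of 69 transcription factors of retinal progenitors and cell fate, none was called and the median was -0.10; atoh7, which opens the ganglion cell fate, differed by -0.08 (95% interval, -0.42 to 0.25), and sox9a, a factor of progenitors and Müller glia, by -0.61 (-0.98 to -0.24). For sox9a the arrays stood at -1.20, -1.26, -1.38 and -1.32 in MBZ eyes, against -0.67, -0.56, -0.70 and -0.78 in BBC eyes. These did not overlap, and the paired test called the gene (limma, adjusted p = 0.185), whereas the unpaired test did not (0.456). An unpaired fit of the 8 arrays alone (limma, adjusted p = 0.0622) and a fit with the slide as a block (0.0549) also called it. The second probe of sox9a gave -0.63 and was not called. None of 45 photoreceptor genes was called (median, 0.04), and crx, the factor of photoreceptor identity, differed by -0.02 (-0.34 to 0.30). The photoreceptor list varied between arrays, with medians of 0.19, -0.19, -0.20 and 0.34 within pairs 1 to 4. Its summed linear level was 132 to 172 in MBZ eyes and 134 to 232 in BBC eyes. None of 27 genes of the visual cycle, pigment epithelium and melanin was called (median, 0.12). The lens list had the highest median of all, 0.26, with 40 of 43 genes above 0 and none called. Its arrays were uneven, and within pairs 1 to 4 the median difference was -0.20, 0.14, 0.68 and 0.39. Lens genes of replicate 2 deviated by a median of 0.51 from the other MBZ arrays in MBZ eyes and of 0.70 from the other BBC arrays in BBC eyes. In replicates 1 and 3 the groups deviated in opposite directions (-0.35 and 0.11 in MBZ eyes, 0.25 and -0.43 in BBC eyes). The summed linear level was 1224 to 1952 in MBZ eyes and 1115 to 1779 in BBC eyes.

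**Figure D3:**
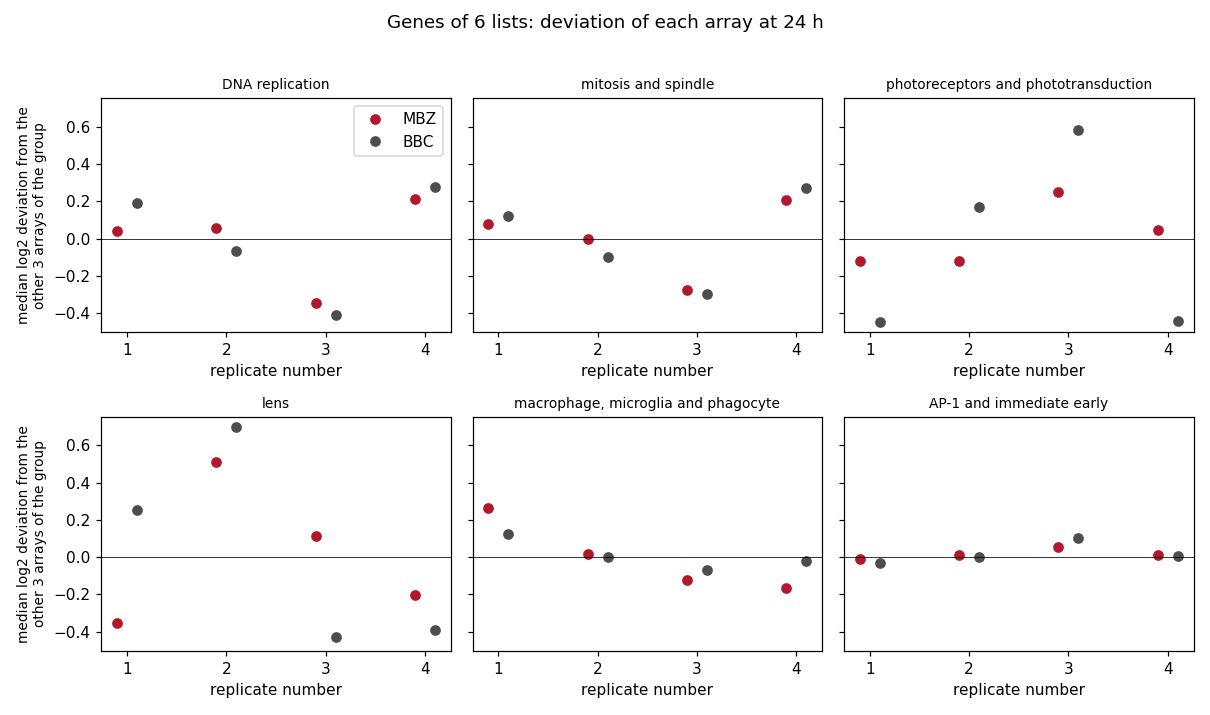
Median deviation of each array from the other 3 arrays of its group (y axis, log2) against the replicate number (x axis), for the genes of 6 lists, with MBZ and BBC side by side. DNA replication genes are lowest in replicate 3 of both compounds (-0.35 in MBZ eyes and -0.41 in BBC eyes), whereas AP-1 genes deviate little with the number.

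**Figure D4:**
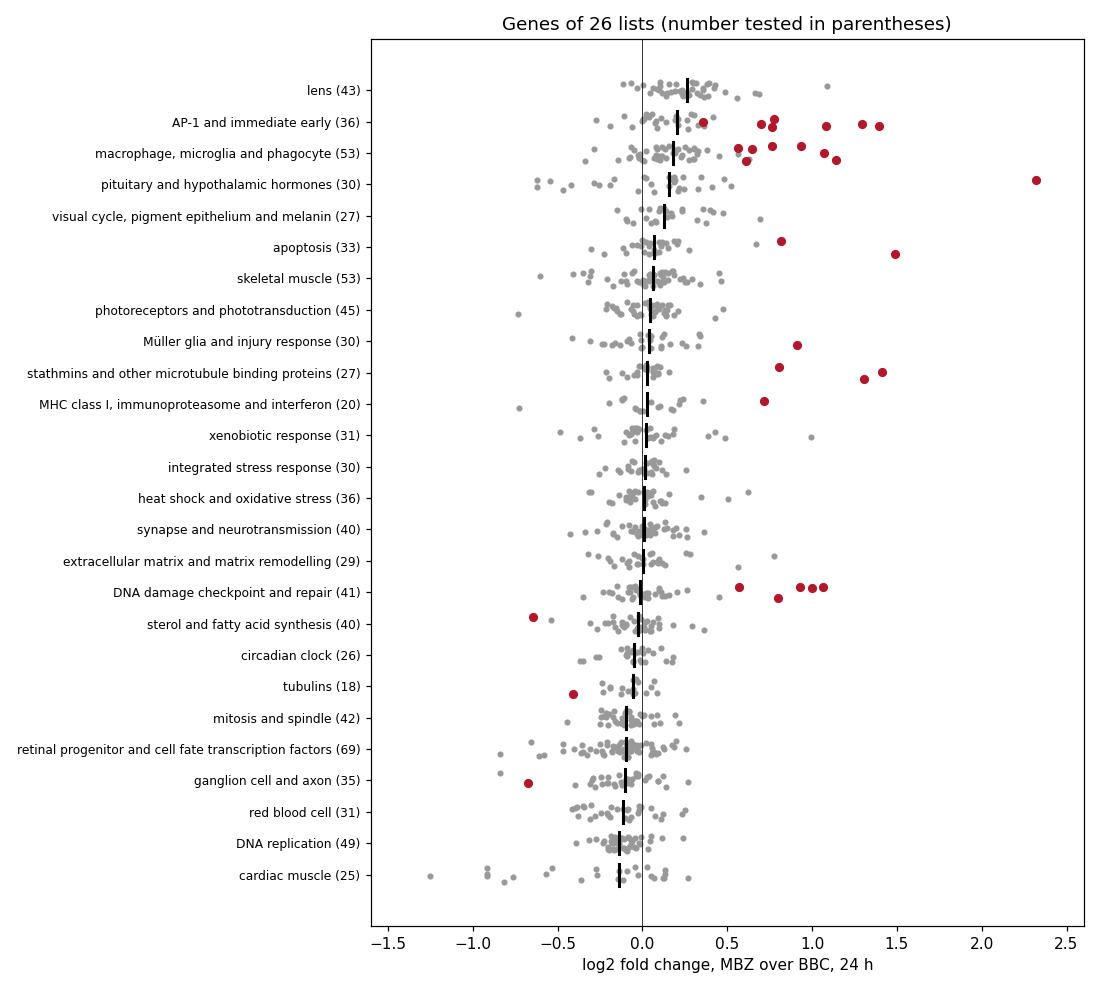
Log2 fold change of MBZ over BBC eyes (x axis) for each tested gene of 26 lists (rows, number of genes in parentheses), with red points for called genes and a bar for the median. The AP-1 list has 7 called genes and the phagocyte list 7, while the mitosis and DNA replication lists have none.

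The lists of other stress programmes held no called gene. Of 30 genes listed for the integrated stress response, none was called. The stress-induced gene atf3, which was called, was counted in the AP-1 list and not in this one. ddit3 differed by 0.12 (95% interval, -0.12 to 0.36) and atf4a by -0.15 (-0.36 to 0.07). Of 36 heat shock and oxidative stress genes none was called, hspa5, the chaperone of the endoplasmic reticulum, differed by 0.01 (-0.14 to 0.16), and hmox1a, heme oxygenase, by 0.51 (0.12 to 0.89). Among 31 xenobiotic response genes, the detoxifying enzyme cyp1a had log2 levels of 3.93, 1.17, 2.96 and 2.70 in MBZ eyes, against 1.11, -0.81, 3.05 and 3.45 in BBC eyes. The groups overlapped, and the mean difference of 0.99 (-0.81 to 2.80) came from the slide of replicates 1 and 2, within which it was 2.4, whereas it was -0.42 within the other slide. Heart genes also varied. myl7, a myosin light chain of the heart, had log2 levels of 0.66, 0.61, -0.57 and -1.12 in MBZ eyes, against 1.01, 0.81, 0.79 and 0.61 in BBC eyes. The difference was -0.91 (95% interval, -2.74 to 0.91). All 6 heart markers were lower on average in MBZ eyes without being called: nppa, the atrial natriuretic peptide, by -1.25, myl7 by -0.91, myh6 by -0.82, cmlc1 by -0.76, tnnt2a by -0.57 and vmhc by -0.04. The 25 cardiac genes had a median of -0.14 with none called without pairs and 1, nppa, called lower with pairs (limma, adjusted p = 0.0706), and none of 53 skeletal muscle and 31 red blood cell genes was called.

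The rises were larger in some pools than in others. MBZ replicate 1 had the highest level of the 4 MBZ arrays for 61 of the 91 called rises. Replicates 2, 3 and 4 had it for 15, 8 and 7, and no such count was made over all tested probes. Likewise the difference between MBZ and BBC arrays of the same number was largest in pair 1 for 54 of the 91, against 23.6% over all tested probes, and the median difference was 1.14, 0.84, 0.82 and 0.69 in pairs 1 to 4. All 91 had the same sign on both slides, and 89 were higher in all 4 pairs, as were 8.66% of all tested probes. The 91 were called from these same arrays, which nearly fixes their sign on both slides and favours agreement between pairs. Without MBZ replicate 1, the test called 175 probes, 131 higher and 44 lower, and 83 of the 101 were among them. A fit of the 8 arrays alone, which estimates the spread from fewer arrays, called 49 probes, and the calls of casp8, ctsc, exo5, fads2, gadd45aa, gja13.2, irf1b, neflb, phlda3, rspo1, stmn4, tk1 and tubb2 were lost in it (limma, adjusted p between 0.23 and 0.90).

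Pairing added 97 probes to the calls, 42 of them with a name, and removed 10. The paired count rested on all the pairs: it was 137, 73 and 83 without an array of pair 1, 2 or 3, and 101 to 105 without an array of pair 4. sult4a1, a brain sulfotransferase, differed by 0.48 (adjusted p = 0.208 without pairs and 0.0533 with pairs; limma), and mmp2, a gelatinase of the extracellular matrix, by 0.56 (0.214 and 0.153). Falls called with pairs included smad3a (-0.56), a mediator of TGF-β signalling, plin6 (-0.72), a coat protein of pigment cell lipid droplets, pou4f4 (-0.47), a POU factor, and sncga (-0.53 at its dimmer probe), a synuclein of ganglion cells. Besides rrad, gja13.2 and tk1, named probes of sema6d, a semaphorin, gmfg, a glia maturation factor, and akt2l, a survival kinase, were called without pairs and not with them (adjusted p between 0.21 and 0.44).

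Most genes that differed at 24 h also differed at the neighbouring exposure times. Of the 91 rises at 24 h, 49 were called at 12 h (60 hpf), 77 at 36 h (84 hpf), 47 at both and 12 at neither. In all, 93 probes (0.295%) were called higher and 8 (0.0254%) lower at 12 h, and 1000 (3.17%) higher and 770 (2.44%) lower at 36 h. The median fitted change of the 91 was 0.54 at 12 h, 0.89 at 24 h and 0.86 at 36 h, and that at 24 h is raised by the choice of the probes at this time. The 10 falls were less shared, 2 being called at 12 h, 1 at 36 h and 7 at neither. As the probes were chosen at 24 h, whether their effect was particular to this time rests on the tests of the difference between effects.

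Those tests found few differences. None of the 31507 probes had an MBZ effect that differed between 24 h and 12 h (limma, adjusted p under 0.20; 669 probes, 2.12%, had an unadjusted p under 0.05), and 20 (0.0635%) differed between 36 h and 24 h. Without MBZ replicate 1, the second count was 429, and without any 1 of the other 7 arrays at 24 h it was 7 to 18. Of the probes called at 24 h, these 20 included both probes of cremb. Its log2 fold change was -0.001 at 12 h, 1.29 at 24 h and 2.57 at 36 h, and the increase from 24 h of 1.28 passed the test (limma, adjusted p = 0.0868). For atf3 the log2 fold changes were 0.26, 1.40 and 2.31 at 12, 24 and 36 h, and neither step passed (adjusted p = 0.297 and 0.254). lgals9l1 likewise had 0.25, 1.14 and 1.57, with neither step passing. bbc3 had 1.90, 1.49 and 1.27 and was called at each time, as were ccng1 (0.68, 1.06 and 0.77), mdm2 (0.79, 1.0 and 0.86), fosab (1.44, 1.08 and 1.18), stmn4l (1.32, 1.31 and 1.54) and slc7a7 (0.71, 0.93 and 0.84). The neflb fall of -0.67 at 24 h stood beside -0.40 at 12 h and -0.41 at 36 h, of which that at 36 h was called (adjusted p = 0.155) and that at 12 h was not (0.709), and the difference between times was not called.

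**Figure D5:**
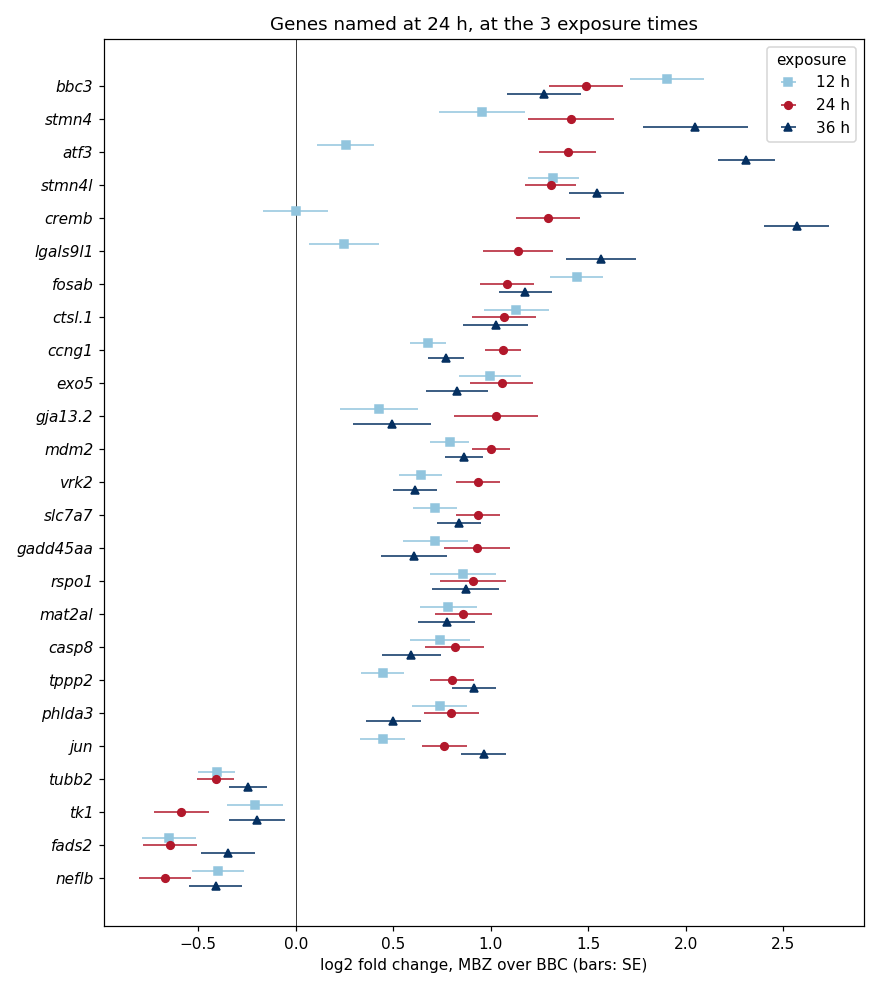
Log2 fold change of MBZ over BBC eyes (x axis, bars are SE) at 12, 24 and 36 h for part of the named genes (rows). Shown are those picked for a large rise or fall at 24 h and the fixed genes, without cyp1a and myl7. cremb moves from -0.001 at 12 h to 2.57 at 36 h, whereas stmn4l stays between 1.31 and 1.54.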

How the data were processed

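RNA from pooled eyes was hybridized to Agilent 1-colour arrays, 4 for each of 6 conditions, grouped by compound, time and replicate number in the labels. The authors extracted the scans with Agilent Feature Extraction (version 8.0 in the submitters' processing notes), and the deposited files hold intensities that are background-corrected and not normalized between arrays. The authors also deposited a log2 table of their own normalization, used as an alternative.

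The log2 of the intensity minus that of the array's 75th percentile was taken, with no value added. Tested probes were positive, significant and well above the background in every array of 1 condition or more; uneven spots were left out. Of 43603 probes, 15163 were named through a RefSeq accession, 65 by Entrez ID and 31 by symbol, and a gene stands for its brightest probe in lists. limma 3.58.1 (lmFit and eBayes in R 4.3.3) was fitted to all 24 arrays with 18 residual degrees of freedom, and p-values were adjusted by Benjamini-Hochberg, with calls at a false discovery rate of 20%. The median SE was 0.14, a precision limited by the small number of arrays. In a second test the replicate numbers were used as pairs, as a block within each time (9 residual degrees of freedom). Same-numbered MBZ and BBC arrays deviated together from their group means (r = 0.31, 0.16, 0.21 and 0.44 for replicates 1 to 4). For differently numbered arrays of the same slide, r was 0.13 (MBZ 1 with BBC 2), 0.08 (MBZ 2 with BBC 1), 0.04 (MBZ 3 with BBC 4) and -0.05 (MBZ 4 with BBC 3). Pair 2 was thus hardly above a mismatched pair of its slide.

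Named genes were the 20 largest called rises and the 10 largest falls (4 passed), named, detected on all 8 arrays and with separate groups, up to 4 members a list with the smallest p (2 where none was called), and 12 fixed genes; others were chosen after their values were seen. Members and the 26 lists were chosen with earlier results of these data known. One gene that the rule picks is not reported here. The alternatives were the normalization, background correction, filter, block, slide, threshold and each array left out.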

Additional observations from a re-analysis of the deposited data

Results flagged for a closer look

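In 8 of 162 groups of 4 arrays (4.94%), 1 array stood apart by Dixon's criterion, which chance alone meets in about 1 in 20 groups. The MBZ group of gja13.2, with a spot left out, is counted among the 162 but was not tested. rspo1 was -2.58 in BBC replicate 3, against -1.98 to -1.93 in the other BBC arrays. casp8 was 0.27 in MBZ replicate 1, against -0.55 to -0.42 in the other MBZ arrays. neflb was -0.91 in BBC replicate 1, against -1.42 to -1.34 in the others. b2m, the light chain of MHC class I, was -1.98 in BBC replicate 4, against -2.33 to -2.29. sox9b, a factor of Müller glia, was -1.35 in MBZ replicate 3, against -1.08 to -1.04. tefb, a bZIP factor of the clock, was -1.13 in MBZ replicate 4, against -1.71 to -1.64. crygn1, a lens crystallin, was -0.48 in MBZ replicate 1, against 0.20 to 0.29. tubb4bl, a β-tubulin, was 3.94 in BBC replicate 1, against 4.44 to 4.55.

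The effect on cremb differed between 36 h and 24 h, by 1.28 at the brighter probe and 1.65 at the dimmer one (limma, adjusted p = 0.0868 and 0.0993).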

How the results depend on the processing

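The 101 probes called at 24 h numbered 172 in the authors' log2 table, 50 with normexp background correction, 49 in a fit of the 8 arrays alone, 188 with the replicate block, 46 with the replicate block and the 8 arrays alone, 154 with the slide as a block and 64 at an adjusted p under 0.05. Quantile normalization (128), the authors' 4 flags on all arrays (83), no filter (83) and a 1.5-fold minimum (75) kept the count within 1.5 times. Leaving out 1 array gave 76 to 175, the highest without MBZ replicate 1. All 101 kept their sign in each of these fits that held them, except in the authors' table, where 95 did. The 188 paired calls numbered 287 with quantile normalization, 481 in the authors' table, 60 at an adjusted p under 0.05, 101 without the block and 73 to 137 with 1 array left out, 73 without either array of replicate 2. Effects that differed between 24 h and 12 h numbered 1 with quantile normalization, 5 in the authors' table, 2 with the 4 flags and 0 to 3 with 1 array left out. Those between 36 h and 24 h numbered 38, 56 and 132 with quantile normalization, the authors' table and the replicate block, 2 at an adjusted p under 0.05, and 7 (without MBZ replicate 2) to 429 (without MBZ replicate 1) with 1 array left out. The cause of these shifts was not tested.

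Called members with 1 array left out were 5 to 8 for phagocyte genes, 5 to 7 for AP-1 genes, 5 for DNA damage genes, 3 for microtubule regulators and 2 for apoptosis genes. Of 28 named called genes, none reversed; 13 lost their call in the fit of the 8 arrays alone, 14 with the replicate block and the 8 arrays alone, among them mdm2 (adjusted p = 0.26), mat2al (0.26) and ghrh (0.235), and stmn4l (1.21, adjusted p = 0.284) only in the authors' table. The replicate block ended the calls of gja13.2 and tk1, made those of mmp2, sox9a, sult4a1 and tefb, and changed no other call among 81 named genes; of the calls it made, only that of sox9a was also made with the 8 arrays alone. The planned normexp fit failed on 5 arrays because of 45 spots with very high local background; leaving these out was chosen after seeing the data. With 8 arrays, a change under about 1.5-fold was not detectable for many probes, and dim probes give bounds only.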
